A study of Homo sapiens with 12 samples.

Results

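The genes of oxidative phosphorylation were examined in 624Mel, an established human melanoma line. Members were chosen by name and selected on their mean level. They are all protein-coding genes named like subunits of the respiratory complexes I to IV or of ATP synthase (complex V) whose mean level reached 2 TPM in at least 1 condition. TPM, the unit of transcript abundance used here, is a read estimate divided by transcript length and scaled to one fixed total per library. The name pattern found 102 genes among 40173 gene IDs, and 93 of them reached the limit, 80 encoded in the nucleus and 13 in mitochondrial DNA. All are called subunits here, although the name alone also brought in the inhibitory factor ATP5IF1 and the readthrough transcripts ATP5MF-PTCD1 and NDUFC2-KCTD14. Each of the 93 was at 5.10 TPM or more in every library, so none entered through a single condition. Of the 9 genes left out, COX7A1 came nearest with a highest condition mean of 1.51 TPM, followed by NDUFA4L2 and NDUFA6 at 0.532 and 0.531 TPM. ATP5MGL, COX4I2, COX6A2, COX6B2, COX8C and UQCRHL were between 0 and 0.194 TPM. Just inside were COX7B2 at 7.79 TPM and the readthrough transcripts ATP5MF-PTCD1 and NDUFC2-KCTD14 at 9.66 and 10.5 TPM. For NDUFS1, NDUFS3, ATP5IF1 and NDUFA6 another gene ID held identical values in all 12 libraries, so the level listed for these genes may be split, and the low level of NDUFA6 cannot be read as low expression. CYC1, NDUFAB1 and cytochrome c (CYCS) fall outside the name pattern and are given separately.

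The cells carried a non-targeting siRNA (siCTRL) or an siRNA against MITF (siMITF), the transcription factor that controls pigment cell identity, and were given either no cytokine or 5 ng/mL IFNγ, the interferon of activated T cells, started 24 h after transfection and kept for 24 h. Each of the 4 conditions had 3 libraries, numbered 1 to 3, all from the one cell line and 1 siRNA per target. MITF was at 187, 229 and 217 TPM in siCTRL and 36.0, 49.7 and 41.7 TPM in siMITF cells, and at 158, 246 and 243 against 37.5, 55.1 and 51.3 TPM under IFNγ. In bulk RNA a change in the share of a kind of cell and a change in RNA per cell cannot be told apart. All 8 melanocyte markers examined were present, with a summed level of 7916 to 9329 TPM in siCTRL and 2676 to 2964 TPM in siMITF libraries, and with IFNγ 7285 to 9673 TPM and 2555 to 3026 TPM. Of 18 markers of leukocytes, fibroblasts, endothelium and epithelium, LYZ and LUM reached 2 TPM. The values used are TPM, which keep no depth, so depth and counting error are unknown, and the errors given are spreads between libraries.

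Oxidative phosphorylation moves electrons from NADH and succinate through complexes I to IV to oxygen, pumps protons across the inner mitochondrial membrane, and lets them return through ATP synthase. Complex II is built from nuclear genes alone, whereas the other 4 complexes each combine many nuclear subunits with a few core subunits read from mitochondrial DNA. Mitochondrial genes are transcribed as long polycistronic RNAs that are cut into mRNAs, rRNAs and tRNAs. In melanoma MITF is known to drive PPARGC1A, the gene of the coactivator PGC-1α, which promotes the expression of nuclear mitochondrial genes.

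The mitochondrial subunits ranked above every nuclear one. Averaged over the 12 libraries they ran from 2354 TPM for MT-ND5 to 23764 TPM for MT-CO2, with a median of 8079 TPM, and the nuclear subunits from 7.13 to 1984 TPM with a median of 199 TPM. The 5 most abundant nuclear subunits were UQCRH, the hinge protein of complex III, ATP5F1B, the catalytic beta subunit of ATP synthase, at 1113 TPM, the complex I accessory subunit NDUFS5 at 1050 TPM, ATP5MF at 779.9 TPM and COX8A at 716 TPM. Apart from the readthrough transcripts and COX7B2, the lowest were NDUFA3 and NDUFV3, both accessory subunits of complex I, at 17.0 and 18.6 TPM. By complex, the median nuclear subunit was at 116 TPM for complex I (36 genes), 184 for complex II (4), 178 for complex III (8), 405 for complex IV (13) and 305 for ATP synthase (19). The nuclear members also had short transcripts, with a median annotated length of 624 bases against 1098 bases over all tested gene IDs.

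In most families of paralogous subunits 1 form prevailed. COX4I1, COX6A1, COX6B1, COX8A and NDUFA4 were at 578, 656, 405, 716 and 139 TPM, while COX4I2, COX6A2, COX6B2, COX8C and NDUFA4L2 stayed under 2 TPM. UQCRH was at 1984 TPM, with its near-identical copy UQCRHL under 2 TPM, and the reads of such copies are hard to tell apart. COX7B at 87.2 TPM was accompanied by COX7B2 at 7.13 TPM. The 3 genes that encode the same mature rotor subunit c of ATP synthase were all expressed, ATP5MC1 at 276, ATP5MC2 at 457 and ATP5MC3 at 441 TPM.

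Among the mitochondrial genes, 2 pairs share bases in the genome. MT-ATP8 and MT-ATP6, which encode membrane subunits of ATP synthase, overlap by 46 bases, and MT-ND4L and MT-ND4, core subunits of complex I, by 7 bases. The reference (GRCh38, plus strand) reads as follows, with the overlap, which opens with the start codon of the downstream gene, in capitals and 20 bases on each side in lower case. The sequences are shown because reads from the shared bases can belong to either gene.
MT-ATP8 and MT-ATP6, chrM:8507-8592: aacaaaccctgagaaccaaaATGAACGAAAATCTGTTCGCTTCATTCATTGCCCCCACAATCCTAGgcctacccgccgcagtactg
MT-ND4L and MT-ND4, chrM:10740-10786: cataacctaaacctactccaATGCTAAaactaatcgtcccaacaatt

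Partners of a pair were listed at close levels: the ratio of MT-ATP8 to MT-ATP6 TPM ran from 0.921 to 1.16 over the 12 libraries, and that of MT-ND4L to MT-ND4 from 0.979 to 1.19. MT-ND6, the one mRNA from the opposite strand (chrM:14149-14673, minus strand), lies next to MT-ND5, and its mean of 3357 TPM came from libraries that do not record strand. The 3 catalytic core mRNAs of complex IV led the list, with MT-CO1 at 20834 TPM and MT-CO3 at 16122 TPM beside MT-CO2, while MT-CYB of complex III was at 5244 TPM.

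Before the conditions are compared, the libraries numbered 2 need to be set apart, because they held the fewest mitochondrial mRNAs in every condition. The 13 mitochondrial subunits took 13.9%, 7.29% and 14.4% of all TPM in siCTRL libraries 1, 2 and 3. In siCTRL + IFNγ they took 16.5%, 8.31% and 15.4%, in siMITF 12.6%, 9.90% and 13.7% and in siMITF + IFNγ 16.6%, 12.5% and 15.8%. Library 2 was lowest each time, and the gap was wider with siCTRL than with siMITF. The 80 nuclear subunits together took 2.12% to 2.48% and showed no such gap. Their sum was 2.38%, 2.48% and 2.21% in siCTRL, 2.18%, 2.28% and 2.12% in siCTRL + IFNγ, 2.33%, 2.35% and 2.35% in siMITF and 2.35%, 2.25% and 2.13% in siMITF + IFNγ. The ratio of mitochondrial to nuclear subunit TPM was 5.83, 2.94 and 6.54 in siCTRL and 7.55, 3.65 and 7.25 in siCTRL + IFNγ. It was 5.40, 4.21 and 5.86 in siMITF and 7.06, 5.56 and 7.41 in siMITF + IFNγ. In each condition it differed more between the libraries than the means of the 4 conditions differed from each other, which ran from 5.10 to 6.68. Within a number, by contrast, the ratio was higher with IFNγ in 6 of 6 pairs of libraries, 3 with siCTRL and 3 with siMITF. What made the libraries numbered 2 differ was not tested, and the labels name no batch.

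**Figure D1:**
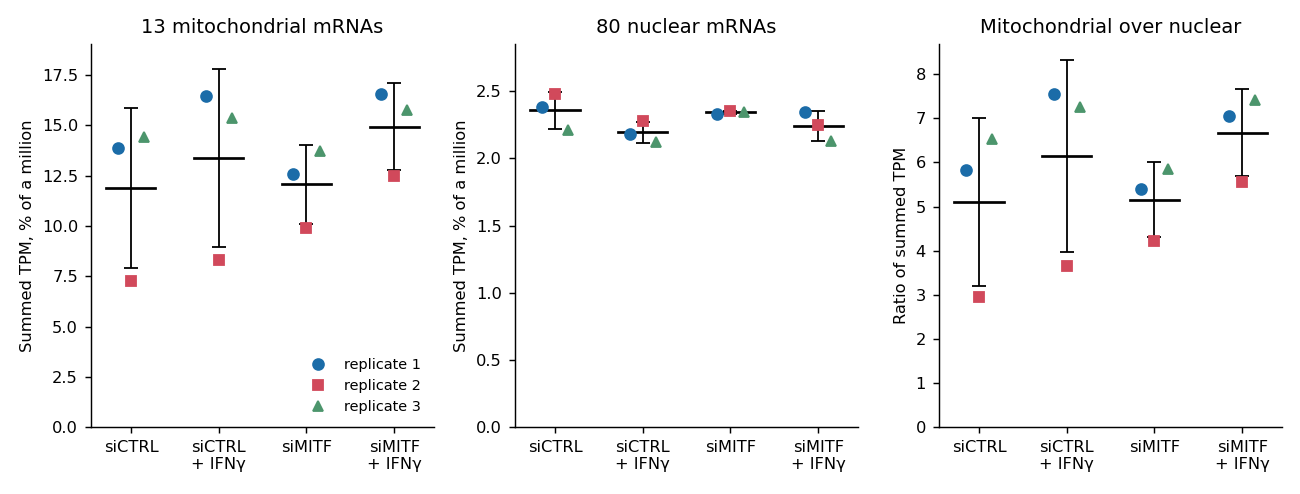
Summed TPM of the 13 mitochondrial subunits (left) and the 80 nuclear subunits (middle) in % of all TPM, and their ratio (right), by condition. Each symbol is a library, the bar is the mean and the whisker the SD of 3 libraries. Library 2 (red squares) is lowest for the mitochondrial sum and the ratio in all 4 conditions.

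The shortfall in the libraries numbered 2 was uneven across the mitochondrial genes. MT-CYB reached 35.8%, 37.9%, 64.4% and 71.6% of the mean of libraries 1 and 3 in siCTRL, siCTRL + IFNγ, siMITF and siMITF + IFNγ. MT-ATP6 reached 36.6%, 38.4%, 63.9% and 67.0%. MT-CO2 reached 72.0%, 68.2%, 88.8% and 83.3%, and the complex I gene MT-ND3 63.8%, 65.4%, 87.4% and 94.9%. Library 2 was the lowest of its condition for 50 of 52 combinations of gene and condition, the exceptions being MT-CO2 in siMITF and MT-ND3 in siMITF + IFNγ. Among nuclear subunits it was the lowest in 32 of 320. The share of MT-CO2 within the mitochondrial sum was highest in library 2 of each condition, at 24.4% against 16.4% and 18.4% in siCTRL.

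**Figure D2:**
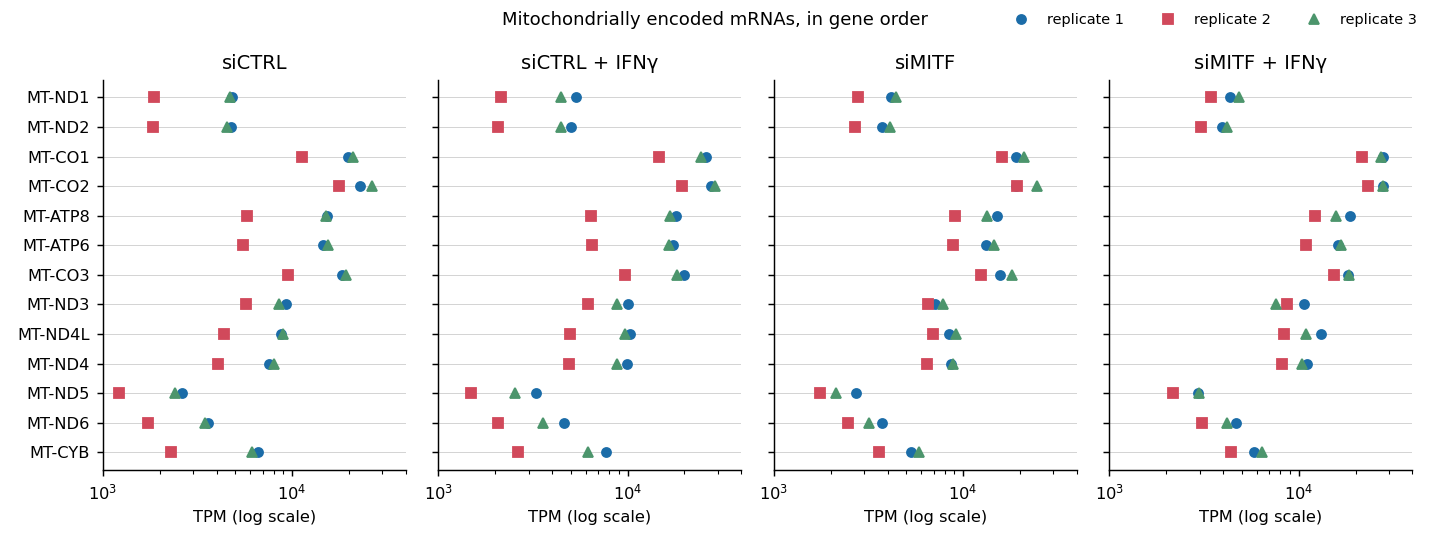
TPM (log scale) of the 13 mitochondrial subunit genes, listed in gene order, with 1 panel per condition and 1 symbol per library. Library 2 (red squares) lies left of the other libraries in 50 of the 52 rows, most for MT-CYB, MT-ATP6 and MT-ATP8 and least for MT-CO2 and MT-ND3.

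On the log2(TPM + 1) scale the median SD within conditions was 0.468 for the mitochondrial subunits and 0.0983 for the nuclear subunits, against 0.142 over all 12773 tested gene IDs. All but 1 of the 13 mitochondrial subunits had a larger SD than any nuclear subunit, the exception being MT-CO2 at 0.254. MT-CYB, MT-ATP8 and MT-ATP6 varied most, at 0.637, 0.632 and 0.631. Nuclear gene IDs of like level varied less, since the 27 at or above the level of MT-ND5 had a median SD of 0.0875. Without the libraries numbered 2, left out after their low mitochondrial values were seen, the medians were 0.113 and 0.102, close to each other. The tightest nuclear subunits were ATP5MC3, SDHB, NDUFB9, NDUFB8 and ATP5PO with SDs of 0.037 to 0.050. The widest were NDUFC2-KCTD14 and NDUFA3, both low in level, NDUFS1, COX7B2 and COX7B, with 0.281 to 0.196. NDUFA3 owed its value to 1 library, at 30.5 TPM in siMITF + IFNγ library 2 against 17.4 and 16.0 TPM in the other two.

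The deviations of the mitochondrial genes from their condition means ran together. Over the 12 libraries, which share the same 12 deviations, the 78 pairs of mitochondrial genes had correlations of 0.75 to 0.999 with a median of 0.966, the 3160 nuclear pairs a median of 0.381, and pairs of 1 mitochondrial and 1 nuclear gene a median of -0.39. TPM sum to a fixed total, so a library with more of one kind lists less of all others.

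**Figure D3:**
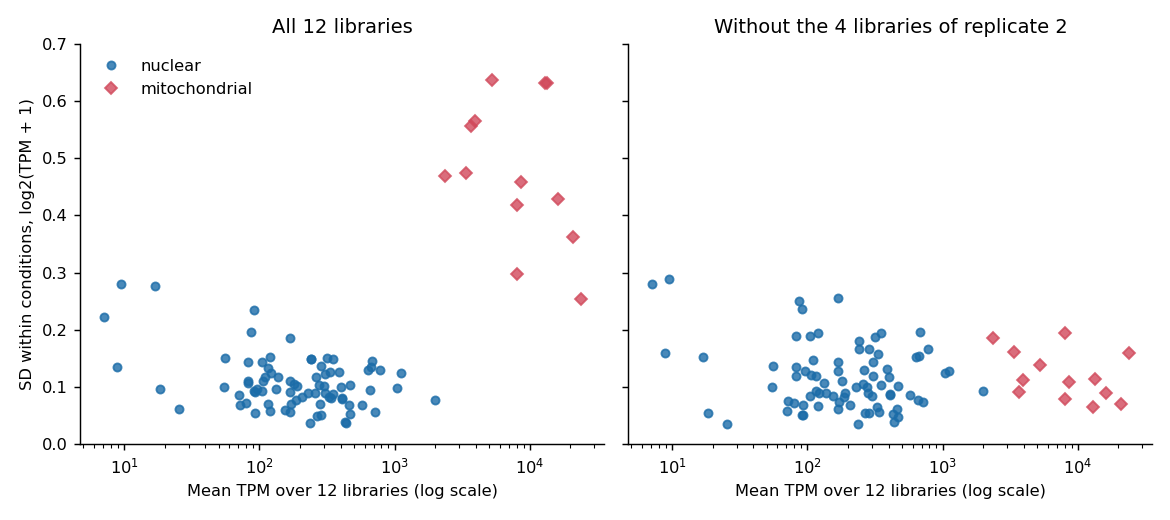
SD within conditions on the log2(TPM + 1) scale against the mean TPM (log scale) of each member, with all 12 libraries (left) and without the libraries numbered 2 (right). Mitochondrial subunits (red diamonds) lie above the nuclear ones (blue circles) on the left, MT-CO2 excepted, with a median of 0.468 against 0.0983, and among them on the right.

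The comparison of siMITF with siCTRL asked how the subunits stood after MITF was lowered. Most nuclear subunits were not called, and a few changed, some higher and some lower, all by less than 1 on the log2 scale. With limma and an adjusted p under 0.05, 9 of 80 nuclear subunits were called, 3 higher and 6 lower, whereas 34.8% of all tested gene IDs were called (21.0% higher and 13.8% lower). The median log2 difference of the nuclear subunits was -0.01, that of all tested gene IDs 0.06. With each library centred on its median the split was 1 higher and 10 lower, beside 44.4% of all gene IDs (3089 higher and 2586 lower). The conditions did not overlap for 9 nuclear subunits that were higher and 16 that were lower with siMITF, beside 33.0% and 22.0% of all gene IDs (55.0% together). None of the 93 members met, in any comparison, the stricter rule that adds an absolute log2 difference of 1. All gene IDs met it in 6.1% of cases here, in 5.68% under IFNγ, in 2.52% and 2.95% for IFNγ in siCTRL and siMITF cells, and in 0.478% for the interaction. The 13 mitochondrial subunits gave 0 calls and also none at an unadjusted p under 0.05, and their median log2 difference of 0.14 with all libraries was -0.12 without those numbered 2 and -0.30 without siCTRL library 2 alone. With the replicate number as a block, 20 nuclear subunits were called (7 higher, 13 lower) beside 47.7% of all gene IDs (28.8% higher and 18.9% lower), and MT-ND4 was called higher (log2 difference 0.33 ± 0.11 SE, adjusted p = 0.0316 in that fit, and 0.28 SE and 0.407 without the block). That call was lost with TPM also rescaled to nuclear genes (adjusted p = 0.0595), and the difference was 0.16 without the libraries numbered 2 and 0.02 without siCTRL library 2 alone. Without the libraries numbered 2 the fit called 6 nuclear subunits, 3 in each direction, beside 24.1% of all gene IDs.

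**Figure D4:**
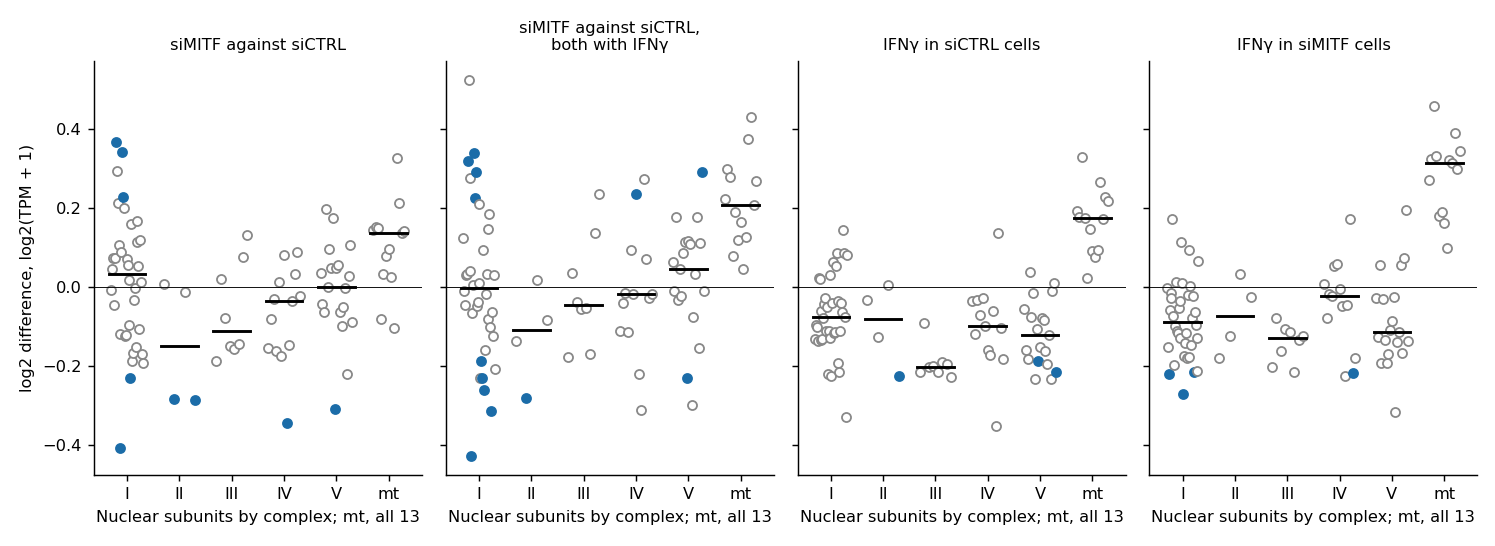
Log2 differences, on the log2(TPM + 1) scale, of the 80 nuclear subunits by complex and of the 13 mitochondrial subunits (mt) in the 4 comparisons. Each circle is a gene, filled circles had an adjusted p under 0.05 in limma, and bars are medians. Calls lie on both sides of 0 with siMITF and below 0 with IFNγ.

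Complex I, with 36 of the 80 nuclear subunits, held 5 of the 9 calls. That was 13.9% of its nuclear subunits, beside 34.8% of all gene IDs. NDUFA8, an accessory subunit on the intermembrane side (ENSG00000119421, chr9:122144058-122159779), was at 141, 136 and 132 TPM in siCTRL and 109, 101 and 98.0 TPM in siMITF. It fell by 0.41 on the log2 scale (SE 0.07, adjusted p = 0.000676), the largest fall among the members, and all siMITF libraries lay below all siCTRL libraries. NDUFB9, an accessory subunit of the membrane arm, went from 507, 484 and 465 to 409, 408 and 422 TPM (log2 difference -0.23 ± 0.05 SE, adjusted p = 0.0053). The other 3 called accessory subunits of the same complex rose. NDUFA2, a peripheral arm subunit (chr5:140638740-140647771), was at 74.0, 79.2 and 63.1 TPM in siCTRL and 92.3, 95.2 and 90.9 TPM in siMITF (0.37 ± 0.09 SE, adjusted p = 0.00671). NDUFB10, in the membrane arm (chr16:1959538-1961975), was at 165, 148 and 156 and 193, 190.0 and 212 TPM (0.34 ± 0.07 SE, adjusted p = 0.0019). NDUFB11, also in the membrane arm and X-linked, was at 88.9, 91.5 and 82.2 and 97.7, 106 and 104 TPM (0.23 ± 0.06 SE, adjusted p = 0.0154). For each of these genes the conditions did not overlap, and none of the 7 nuclear core subunits of complex I was called. NDUFA3 and NDUFA5 had positive differences of 0.29 and 0.21 that did not pass (adjusted p = 0.277 and 0.175).

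Complex II, succinate dehydrogenase, is the one complex shared with the tricarboxylic acid cycle, and 2 of its 4 subunits fell. SDHB, the iron-sulfur subunit (chr1:17018664-17054032), was at 274, 270.4 and 266 TPM in siCTRL and 224, 217 and 225 TPM in siMITF (-0.28 ± 0.06 SE, adjusted p = 0.00158). SDHD, a membrane anchor (chr11:112086824-112120016), was at 138, 143 and 132 and 113, 111 and 114 TPM (-0.28 ± 0.06 SE, adjusted p = 0.00449). SDHA, the flavoprotein, stood at 134, 141 and 136 against 134, 143 and 137 TPM, and the other anchor SDHC at 331, 362 and 318 against 329, 338 and 334 TPM, with log2 differences of 0.01 and -0.01 whose libraries overlapped.

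In complex III no subunit was called, and 3, UQCRC1, UQCRC2 and UQCR10, were called lower with the replicate block (adjusted p = 0.0328, 0.0376 and 0.0205). In complex IV, COX7A2L, which helps to join complexes III and IV in supercomplexes, went from 120.0, 132 and 113 to 99.1, 92.6 and 94.6 TPM and fell by 0.34 on the log2 scale (SE 0.08, adjusted p = 0.0053). In ATP synthase, ATP5MC3 (chr2:175176258-175181710) went from 520.3, 524 and 499 to 407, 422 and 416 TPM, a fall of 0.31 (SE 0.05, adjusted p = 0.000668). Neither of the other 2 genes for subunit c was called. ATP5MC1 was at 293, 313 and 269 against 309, 303 and 291 TPM and ATP5MC2 at 447, 484 and 421 against 497, 513 and 515 TPM, with adjusted p = 0.708 and 0.0558 (ATP5MC2 was called higher with the replicate block, adjusted p = 0.0147). The ratio of ATP5MC3 to ATP5MC2 TPM, chosen after the values were seen and given without a test, was 1.14 ± 0.0542 (SD, n = 3) in siCTRL and 0.816 ± 0.00857 in siMITF, and with IFNγ 1.08 ± 0.0251 and 0.851 ± 0.0115. The ratio of COX7A2L to COX7A2 went from 0.345 ± 0.00488 to 0.257 ± 0.00609 without and from 0.342 ± 0.0123 to 0.249 ± 0.00725 with IFNγ.

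Under IFNγ the siMITF comparison called 13 of 80 nuclear subunits, 6 higher and 7 lower, against 33.1% of all tested gene IDs (18.4% higher and 14.7% lower). The median log2 difference was -0.01 over the nuclear subunits and 0.03 over all gene IDs. With each library centred on its median the split was 4 higher and 9 lower, beside 43.2% of all gene IDs (2876 higher and 2648 lower). All 3 subunits called higher without IFNγ and 4 of the 6 called lower, NDUFA8, NDUFB9, SDHB and ATP5MC3, were called in the same direction here. That was 3 of 3 and 4 of 6, where of all gene IDs called without IFNγ 69.1% of those higher and 78.6% of those lower were called alike with it. The libraries compared differ, but all libraries entered the same fit and shared its estimate of spread, so the repeated calls are not independent. ATP5MC3, SDHB and NDUFB9 had the smallest SDs of the nuclear subunits. A fit of only the conditions compared called fewer nuclear subunits here, 4, and more without IFNγ (21.4% and 45.6% of all gene IDs). NDUFA8 was at 131, 134 and 123 TPM in siCTRL + IFNγ and 101, 97.4 and 89.6 TPM in siMITF + IFNγ (-0.43 ± 0.07 SE, adjusted p = 0.000494). SDHB was at 241, 254 and 247 and 212, 198 and 200.5 TPM (-0.28 ± 0.06 SE, adjusted p = 0.00185). NDUFB10 was at 153, 141 and 139.5 and 181, 182 and 185 TPM (0.34 ± 0.07 SE, adjusted p = 0.00219). In all of these the conditions did not overlap, as for 8 nuclear subunits that were higher and 12 that were lower, beside 21.3% and 17.0% of all gene IDs (38.3% together). The calls of NDUFA8 and SDHB held in both comparisons under all 24 alternative settings, also without the libraries numbered 2.

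Further calls under IFNγ fell on complexes I, IV and V, 1 of them on a core subunit. NDUFS7, a core iron-sulfur subunit of complex I, was at 88.4, 96.6 and 95.3 against 61.0, 81.1 and 85.2 TPM (-0.31 ± 0.11 SE, adjusted p = 0.0446). The lowest value came from siMITF + IFNγ library 1, without which the difference was -0.17 and not called. NDUFC2 and NDUFB8 fell by 0.26 and 0.19 on the log2 scale (adjusted p = 0.0167 and 0.0281). ATP5PF, coupling factor 6 in the peripheral stalk of ATP synthase, rose by 0.29 (adjusted p = 0.0346), although its libraries at 315, 327 and 297 and 440.4, 388 and 327 TPM overlapped. It too rested on siMITF + IFNγ library 1, without which the difference was 0.19 and not called. NDUFB2 rose by 0.29 and COX7A2 by 0.24 (adjusted p = 0.00812 and 0.0305). The anchor SDHD, lower with siMITF alone, had a difference of -0.08 here (adjusted p = 0.362), and the 2 values did not pass the interaction test (adjusted p = 0.641). The largest positive difference, 0.52 for NDUFA3, did not pass (adjusted p = 0.057, and 0.0309 with the replicate block) and was 0.18 without the libraries numbered 2. With the replicate block 26 nuclear subunits were called, 13 in each direction, beside 46.3% of all gene IDs (25.3% higher and 21.0% lower). COX7A2L was among them, at 103, 115 and 106 TPM against 97.3, 95.9 and 84.0 TPM (log2 difference -0.22, adjusted p = 0.015, and 0.0527 without the block), and so was COX7B (log2 difference -0.31, adjusted p = 0.00679, and 0.112 without the block). Without the libraries numbered 2 the fit called 4, NDUFA8, SDHB, NDUFB10 and NDUFB2, beside 23.3% of all gene IDs. The mitochondrial subunits gave 0 calls and none at an unadjusted p under 0.05. With the block MT-ND4 and MT-ND4L were called higher (adjusted p = 0.0173 and 0.0183), and their log2 differences of 0.37 and 0.43, which did not pass without the block, were 0.20 and 0.27 without the libraries numbered 2. The median over the 13 was 0.21, and -0.11 without siCTRL + IFNγ library 2.

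The comparison of siCTRL + IFNγ with siCTRL asked what the cytokine did to the subunits while MITF was present. Nuclear subunits lay slightly lower, 67 of 80 below 0, with a median log2 difference of -0.10 against -0.07 over all tested gene IDs. Called were 3, all lower, beside 12.9% of all gene IDs (6.8% higher and 6.14% lower). ATP5PO, which links the ATP synthase stalk to its catalytic head, was at 309, 326 and 299 TPM in siCTRL and 272, 268 and 264 TPM in siCTRL + IFNγ (-0.22 ± 0.06 SE, adjusted p = 0.0314). SDHD was at 138, 143 and 132 and 119, 118 and 116 TPM (-0.23 ± 0.06 SE, adjusted p = 0.0391), and ATP5MC3 at 520.3, 524 and 499 and 455, 466 and 434 TPM (-0.19 ± 0.05 SE, adjusted p = 0.0374). SDHD and ATP5MC3 were also called lower with siMITF, against the same siCTRL libraries. In each the conditions did not overlap, as for 19 nuclear subunits that were lower and 1 that was higher with IFNγ, beside 18.1% and 11.7% of all gene IDs (29.7% together). All 8 nuclear subunits of complex III were below 0, from -0.23 to -0.09, and with the replicate block 6 of them were among 17 nuclear subunits called lower, beside 25.7% of all gene IDs (16.0% lower). They were UQCRQ, UQCRC2, UQCR10, UQCRC1, UQCRH and UQCRFS1, the last being the Rieske iron-sulfur protein, at 28.5, 29.8 and 28.2 TPM before and 23.6, 27.1 and 25.0 TPM after IFNγ. The calls without the block were not stable, since leaving out 1 of siCTRL libraries 1 and 2, siCTRL + IFNγ libraries 1 and 3, or any siMITF library gave 0, and leaving out all libraries numbered 2 also gave 0 (5.86% of all gene IDs). The largest differences, -0.35 for COX7B2 and -0.33 for NDUFV2, did not pass (adjusted p = 0.199 and 0.0697, and 0.0167 and 0.015 with the block). ATP5PB, a peripheral stalk subunit, had -0.23 and ATP5MC1 -0.23 (adjusted p = 0.0912 and 0.0987, and 0.0376 and 0.0097 with the block). On the positive side the values reached 0.14 for NDUFS7, 0.14 for COX7C of complex IV and 0.09 for NDUFS8, a core iron-sulfur subunit like NDUFS7, none of which passed in either fit.

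The same comparison was made in siMITF cells. Of the nuclear subunits 64 of 80 were below 0, with a median log2 difference of -0.10 against -0.10 over all tested gene IDs, and 4 were called lower and 0 higher, beside 20.2% of all gene IDs (7.99% higher and 12.2% lower). COX8A, a small subunit of complex IV, was at 739, 787 and 813 TPM in siMITF and 637, 672 and 702 TPM in siMITF + IFNγ (-0.22 ± 0.06 SE, adjusted p = 0.0219). NDUFS6 was at 182, 178 and 185 and 146, 164 and 159 TPM (-0.21 ± 0.06 SE, adjusted p = 0.0304), NDUFA11 at 284, 308 and 316 and 243, 267 and 270.4 TPM (-0.22 ± 0.07 SE, adjusted p = 0.0371), and NDUFB6 at 63.2, 62.0 and 57.5 and 51.1, 55.1 and 45.0 TPM (-0.27 ± 0.09 SE, adjusted p = 0.0444). The last 3 are accessory subunits of complex I, and the conditions did not overlap for any of the 4. In all, 24 nuclear subunits were lower and 0 higher without overlap, beside 28.4% and 12.1% of all gene IDs (40.5% together). ATP5MF-PTCD1, ATP5MC2 and SDHA were called with the replicate block and not without it (log2 difference -0.32, -0.17 and -0.18, adjusted p = 0.0303, 0.0241 and 0.0426). None of the 4 was among the 3 called lower in siCTRL cells, and with the block 4 were called lower in both states, ATP5MC1, NDUFB6, UQCR10 and UQCRFS1. Over all gene IDs 67.7% of those lower in siCTRL cells were called lower in siMITF cells too, and 69.4% with the block. The largest positive differences, 0.19 for ATP5PF, 0.17 for COX7C, 0.17 for NDUFA3 and 0.11 for NDUFB4, did not pass. The count became 13, all lower, with the replicate block (35.7% of all gene IDs, 24.5% lower), 0 without the libraries numbered 2 (10.6% of all gene IDs), and 0 without siMITF library 2 or siMITF library 3 alone.

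The mitochondrial subunits lay above 0 with IFNγ, opposite to the nuclear ones, by less than the spread between the numbers but in step within them. The nuclear medians, -0.10 in siCTRL and -0.10 in siMITF cells, lay near those of all gene IDs, -0.07 and -0.10. With TPM rescaled to nuclear genes the nuclear medians were -0.08 and -0.05. The mitochondrial sum was higher with IFNγ in 6 of 6 pairs of libraries of one number, the nuclear sum in 1 of 6. All 13 differences were positive in both cell states, with medians of 0.17 in siCTRL and 0.31 in siMITF cells, and 0 were called in either, also at an unadjusted p under 0.05. The median in siCTRL cells turned to -0.17 without siCTRL library 2. MT-CO1, the catalytic core of complex IV, was at 19696, 11289 and 21131 TPM in siCTRL and 25894, 14660 and 24461 TPM in siCTRL + IFNγ, and at 18952, 16115 and 20928 TPM in siMITF and 27876, 21752 and 27252 TPM in siMITF + IFNγ. It was the one mitochondrial member whose libraries did not overlap, in siMITF cells, where its log2 difference was 0.46 ± 0.24 (SE, adjusted p = 0.21). In those cells 12.1% of all gene IDs were higher with IFNγ without overlap. Within a replicate number 9 of the 13 mitochondrial genes, MT-CO1 among them, were higher with IFNγ in 6 of 6 pairs and MT-ND1, MT-ND2, MT-ND3 and MT-CO3 in 5 of 6, while of the 80 nuclear subunits 1, COX7C, was higher in all 6. The share of all gene IDs higher in every pair was not counted, so these counts have none beside them. With the replicate block MT-CO1 passed in both states (adjusted p = 0.0452 in siCTRL and 0.00676 in siMITF cells), and MT-CO2, MT-ND4, MT-ND4L and MT-ND6 passed in siMITF cells (adjusted p = 0.0129, 0.049, 0.0377 and 0.0315). The calls were 7.69% and 38.5% of the 13 in siCTRL and siMITF cells. Of all gene IDs the block called 25.7% and 35.7% (16.0% and 24.5% lower). With TPM also rescaled to nuclear genes, MT-CO1 in siCTRL cells and MT-ND4 in siMITF cells no longer passed (adjusted p = 0.0639 and 0.0548), nor did MT-ND4 with the block and length and GC trends removed (0.0606). Without siCTRL library 2 alone the difference of MT-CO1 in siCTRL cells was 0.04, against 0.33 with it. Without the libraries numbered 2 the medians were 0.17 and 0.27. Those libraries were left out after their low mitochondrial values were seen, which by itself narrows the spread of these genes. The SD of MT-CO1 went from 0.362 to 0.0694. That fit called 3 mitochondrial subunits in siMITF cells, MT-CO1 among them (log2 difference 0.47, adjusted p = 0.0056), beside 10.6% of all gene IDs. The p-values of that fit rest on the choice of libraries and add no support. Because the 13 genes share their deviations between libraries, they do not count as 13 separate observations.

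No member passed the interaction test, which asks whether the effect of IFNγ differed between siMITF and siCTRL cells. Over all tested gene IDs 0.947% passed, and 2.16% with the replicate block. Among the nuclear subunits 2 had an unadjusted p under 0.05 and among the mitochondrial subunits 0, and the counts were 0 under every alternative setting that was run. The most positive nuclear interactions were 0.31 for COX7B2, 0.24 for ATP5F1C and 0.23 for NDUFA3, the most negative -0.23 for ATP5MF-PTCD1 and -0.23 for ATP5F1D, with adjusted p from 0.713 to 0.97. 

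PPARGC1A fell with siMITF without IFNγ by more than any subunit did, and TFAM fell as well. PPARGC1A was at 24.1, 29.8 and 30.4 TPM in siCTRL and 10.3, 10.8 and 11.1 TPM in siMITF, and fell by 1.30 on the log2 scale (SE 0.20, adjusted p = 0.000303), with no overlap. With IFNγ it was at 11.4, 19.1 and 20.9 TPM in siCTRL and 8.57, 14.0 and 10.9 TPM in siMITF cells. It fell with IFNγ in siCTRL cells (-0.72 ± 0.20 SE, adjusted p = 0.0363, but 0.144 without the libraries numbered 2), and the siMITF difference under IFNγ of -0.56 did not pass (adjusted p = 0.0518, and 0.00348 with the replicate block). Its relative PPARGC1B fell with siMITF by 0.68 and, under IFNγ, by 0.55 (adjusted p = 0.00773 and 0.0251, but 0.057 and 0.12 without the libraries numbered 2). TFAM, which packages mitochondrial DNA and starts its transcription, was at 138, 186 and 148 TPM in siCTRL and 108, 116 and 109 TPM in siMITF (-0.49 ± 0.13 SE, adjusted p = 0.00946, and -0.39 without the libraries numbered 2), and also fell under IFNγ (difference of -0.43, adjusted p = 0.019). With IFNγ itself TFAM had -0.34 in siCTRL and -0.29 in siMITF cells (adjusted p = 0.105 and 0.133, and 0.00235 and 0.00498 with the replicate block). The calls of PPARGC1A and TFAM for siMITF without IFNγ held under all 24 alternative settings. The mitochondrial mRNAs showed no call in the same comparison without the block. GABPA, an ETS factor of respiratory genes, rose by 0.47 with siMITF under IFNγ (adjusted p = 0.00365). NRF1, the nuclear respiratory factor, had -0.30 and -0.41 with IFNγ in siCTRL and siMITF cells (adjusted p = 0.178 and 0.0534, and 0.0357 and 0.00628 with the block).

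**Figure D5:**
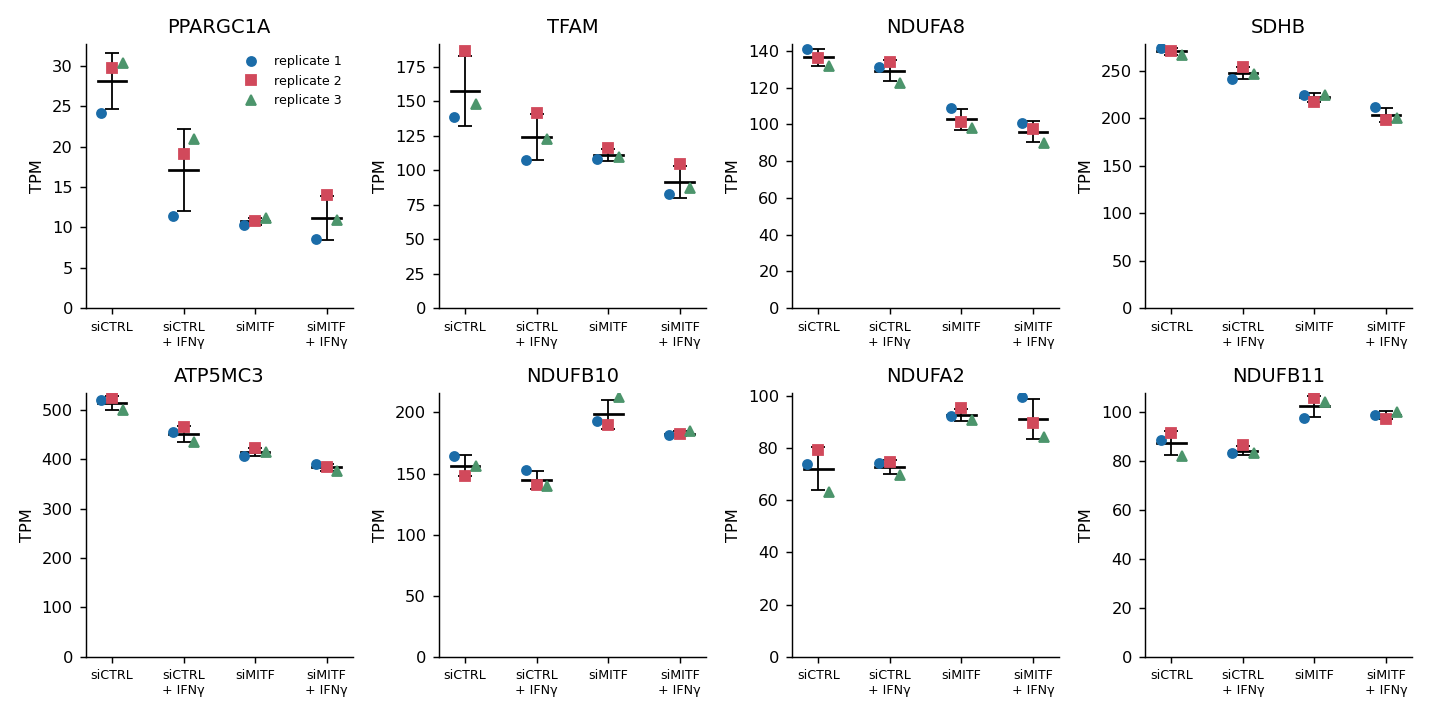
TPM of PPARGC1A, TFAM and 6 subunits by condition, each panel starting at 0. Symbols are libraries, bars means and whiskers the SD of 3 libraries. PPARGC1A differs by over 1 on the log2 scale between siCTRL and siMITF, the subunits NDUFA8, SDHB and ATP5MC3 are lower and NDUFB10, NDUFA2 and NDUFB11 higher with siMITF by 0.23 to 0.41 in size.

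Around the subunits, further gene groups were counted over lists written for this work. The shares of all gene IDs called to set beside them are 34.8% and 33.1% for siMITF without and with IFNγ and 12.9% and 20.2% for IFNγ in siCTRL and siMITF cells, and 47.7%, 46.3%, 25.7% and 35.7% with the replicate block. Of 56 assembly factors, siMITF called 9 higher and 7 lower (13 and 10 with the block) without and 6 higher and 8 lower (9 and 10 with the block) with IFNγ, and IFNγ called 1 higher and 2 lower (1 and 12 with the block) in siCTRL and 1 higher and 7 lower (2 and 15 with the block) in siMITF cells. Without the block that was 28.6% of the list for siMITF without IFNγ. SCO2, which delivers copper to complex IV, was the assembly factor that rose with IFNγ in both states (log2 difference 0.33 ± 0.10 and 0.40 ± 0.10 SE, adjusted p = 0.0413 and 0.0125, but 0.231 and 0.13 without the libraries numbered 2). TIMMDC1, a complex I assembly factor, fell with siMITF by 0.73 (adjusted p = 0.00235), and by 0.64 under IFNγ (adjusted p = 0.0055). COA6, SDHAF3, BCS1L and PET117 were also called lower with siMITF in both comparisons, and COA1, SURF1, COX20, TTC19 and UQCC1 were called higher in both.

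Of 77 tested proteins of the mitochondrial ribosome, which makes the 13 mitochondrial subunits, siMITF called 2 higher and 20 lower (3 and 25 with the block) without and 3 higher and 21 lower (5 and 29 with the block) with IFNγ, and IFNγ called 0 higher and 9 lower (0 and 25 with the block) in siCTRL and 1 higher and 21 lower (2 and 35 with the block) in siMITF cells. Without the block the shares of the list called in either direction were 28.6%, 31.2%, 11.7% and 28.6%, against 34.8%, 33.1%, 12.9% and 20.2% of all gene IDs. By direction, 13.8%, 14.7%, 6.14% and 12.2% of all gene IDs were called lower and 21.0%, 18.4%, 6.8% and 7.99% higher. Its median log2 differences were -0.07 and -0.12 for siMITF and -0.14 and -0.16 for IFNγ, where all gene IDs had 0.06, 0.03, -0.07 and -0.10. MRPS10 had the lowest value with siMITF, at -1.93 and -1.61 (adjusted p = 6.6e-09 and 3.66e-08). For 84 tested cytosolic ribosomal proteins, siMITF called 3 higher and 6 lower (7 and 7 with the block) without and 7 higher and 7 lower (11 and 11 with the block) with IFNγ, and IFNγ called 0 higher and 14 lower (0 and 35 with the block) in siCTRL and 0 higher and 12 lower (0 and 22 with the block) in siMITF cells, and the shares without the block were 10.7%, 16.7%, 16.7% and 14.3%.

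Of 32 genes for the expression and upkeep of mitochondrial DNA, siMITF called 3 higher and 6 lower (3 and 11 with the block) without and 2 higher and 4 lower (3 and 7 with the block) with IFNγ, and IFNγ called 1 higher and 2 lower (1 and 7 with the block) in siCTRL and 1 higher and 0 lower (1 and 7 with the block) in siMITF cells. Those higher with siMITF without IFNγ were MTERF1, POLG2 and TWNK, and TFAM was among the 6 lower. PNPT1, a mitochondrial RNA-degrading enzyme, was not called in any comparison. Of 14 tricarboxylic acid cycle enzymes, siMITF called 0 higher and 3 lower (2 and 3 with the block) without and 0 higher and 0 lower (1 and 2 with the block) with IFNγ, and IFNγ called 0 higher and 1 lower (0 and 3 with the block) in siCTRL and 0 higher and 1 lower (0 and 6 with the block) in siMITF cells, and those lower with siMITF were IDH3A, SUCLG1 and FH. Of 15 regulators, siMITF called 0 higher and 3 lower (1 and 3 with the block) without and 2 higher and 2 lower (2 and 3 with the block) with IFNγ, and IFNγ called 0 higher and 2 lower (1 and 4 with the block) in siCTRL and 0 higher and 1 lower (0 and 2 with the block) in siMITF cells. PPARGC1A, PPARGC1B and PPARD were the regulators lower with siMITF without IFNγ. Under IFNγ PPARD and PPARGC1B were lower with siMITF, and GABPA and ESRRA were higher. MYC was lower with IFNγ in both states and PPARGC1A in siCTRL cells. None of the genes of these lists passed the interaction test. The mitochondrial rRNAs were not analysed here.

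Differences of like size were found for the subunits outside the name pattern. CYC1, cytochrome c1 of complex III, was at 198, 208 and 208 TPM in siMITF and 144, 180.2 and 182 TPM in siMITF + IFNγ and fell by 0.29 on the log2 scale (SE 0.08, adjusted p = 0.0302, but 0.11 without the libraries numbered 2). It also fell with siMITF under IFNγ, from 190.2, 206 and 197 TPM (-0.24 ± 0.08 SE, adjusted p = 0.0465, but 0.138 without those libraries). NDUFAB1, the mitochondrial acyl carrier protein held by complex I, was at 445, 468 and 413 TPM in siCTRL and 383, 383 and 412 TPM in siMITF (-0.17 ± 0.06 SE, adjusted p = 0.0495, a call that held in 8 of 24 alternative settings). CYCS was not called, with adjusted p = 0.0569 for IFNγ in siCTRL cells, where it passed with the block (0.0106) and was at 314, 349.5 and 304 and 244, 277 and 248 TPM.

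Promoters were read for the 66 nuclear members with an entry (RefSeq, GRCh38.p14, 250 bases before to 50 after the start) and searched on both strands for letters recognised by nuclear respiratory factor 1 (GCGCA and GCGC with any base between them), by ETS factors such as GABPA (CCGGAAG) and by MITF and related factors (CACGTG or CATGTG). The first was found in 24.2% of the members, 12.6% of the tested genes and 6.28% of all promoters, and the second in 30.3%, 20.8% and 10.7%. CACGTG was found in 10.6%, 10.5% and 7.43%, and CATGTG in 9.09%, 6.56% and 11.2%. Promoters were at hand for 6 subunits called lower and 6 called higher with siMITF in a comparison. In the lower and the higher ones, the first word was found in 2 and 0 and the second in 2 and 1 (ATP5PF). CACGTG was in 1 (NDUFS7) and 0, and CATGTG in 1 (NDUFB8) and 1 (COX7A2). The share of all members with any of the words was not counted, and the numbers are small, so lower and higher subunits were not compared. Shown are the 3 called lower that hold a word of the respiratory factors, picked for that. They are in lower case with every match in capitals. In NDUFA8 2 matches to the first word overlap in one run, SDHD holds one match to the first and one to the second on the other strand, and SDHB one to the second.
NDUFA8, chr9:122159730-122160029, minus strand: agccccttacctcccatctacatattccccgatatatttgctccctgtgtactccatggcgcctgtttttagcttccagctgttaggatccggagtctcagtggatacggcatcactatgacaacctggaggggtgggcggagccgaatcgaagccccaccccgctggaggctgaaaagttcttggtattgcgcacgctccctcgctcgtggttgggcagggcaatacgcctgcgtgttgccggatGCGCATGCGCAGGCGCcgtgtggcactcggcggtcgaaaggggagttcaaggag
SDHD, chr11:112086623-112086922, plus strand: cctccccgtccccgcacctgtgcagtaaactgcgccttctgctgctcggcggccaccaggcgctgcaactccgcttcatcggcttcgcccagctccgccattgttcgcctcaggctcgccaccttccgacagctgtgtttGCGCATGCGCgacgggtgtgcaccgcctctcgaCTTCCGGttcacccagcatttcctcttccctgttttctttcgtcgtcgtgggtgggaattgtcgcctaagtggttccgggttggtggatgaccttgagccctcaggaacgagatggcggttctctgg
SDHB, chr1:17053983-17054282, minus strand: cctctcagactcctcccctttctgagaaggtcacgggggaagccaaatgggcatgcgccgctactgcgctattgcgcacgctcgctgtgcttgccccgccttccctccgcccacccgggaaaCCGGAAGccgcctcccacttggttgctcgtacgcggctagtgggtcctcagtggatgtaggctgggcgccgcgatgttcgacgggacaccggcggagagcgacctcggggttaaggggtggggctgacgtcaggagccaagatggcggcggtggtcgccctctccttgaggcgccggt

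The promoters of COX7A2L, NDUFA2, NDUFB10 and NDUFB11 held none of the 4 words in this window. A match is a description of the letters and says nothing on whether a factor was bound.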

How the data were processed

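Libraries from 12 cultures were made with a poly(A) kit that does not record strand. The authors trimmed reads with Trimmomatic 0.39 and quantified Ensembl GRCh38 transcripts with kallisto, and deposited TPM per gene ID. How transcripts were summed and which Ensembl release was used are not given in the sources used here. Because counts were not used here, the DESeq2 test of the study's methods could not be run, and depth is unknown.

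Tested were the 12773 gene IDs that reached a mean of 2 TPM in 1 condition or more. limma 3.58.1 (R 4.3.3) fitted 4 condition means to log2(TPM + 1) with a trend in the moderation. Tests are two-sided and adjusted by the Benjamini-Hochberg method over all tested gene IDs, and a call is an adjusted p under 0.05. The 4 comparisons share libraries, so their errors are linked. Symbols, positions and lengths came from GENCODE 44.

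The labels number the libraries 1 to 3 in each condition, and libraries of one number deviated together. After condition means were removed, the 18 pairs with one number in different conditions correlated at 0.102 to 0.625, and pairs with different numbers had a median of -0.20. The replicate number was therefore also fitted as a block. The study describes independent biological replicates, but the labels do not say what a number shares.

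Members, gene lists and tests were chosen with earlier results of these data known. Named are all mitochondrial members, the SDH genes, paralogous families and the 5 largest nuclear differences each way per comparison. Extremes of level and spread, genes next to the 2 TPM limit and key genes of the lists are named too. Of the called genes of the lists only some are named. The other called members, the promoter words, the isoform ratios and the fit without the 4 libraries numbered 2 were added after the values were seen.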

Additional observations from a re-analysis of the deposited data

How the results depend on the processing

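The fits called 9 and 13 nuclear subunits for siMITF without and with IFNγ and 3 and 4 for IFNγ in siCTRL and siMITF cells. In the same order these counts became 20, 26, 17 and 13 with the replicate block, 27, 30, 23 and 27 with length and GC trends removed and the block, and 23, 29, 18 and 10 with TPM rescaled to nuclear genes and the block. The share of all gene IDs called rose as well, from 34.8%, 33.1%, 12.9% and 20.2% to 47.7%, 46.3%, 25.7% and 35.7%, to 51.8%, 51.0%, 29.4% and 41.5%, and to 50.4%, 49.6%, 27.0% and 34.4%. Without the block, rescaling to nuclear genes gave 17, 21, 6 and 2 (42.1%, 40.9%, 18.4% and 24.9% of all gene IDs), and a fit of only the conditions compared gave 17, 4, 1 and 0 (45.6%, 21.4%, 8.44% and 17.4%). Removing length and GC trends gave 14, 19, 5 and 5 (38.2%, 37.0%, 14.2% and 23.6% of all gene IDs). Centring libraries on their median gave 1 for IFNγ in each state (22.0% and 29.8% of all gene IDs in siCTRL and siMITF cells). Moderation without a trend gave 0 in each (12.4% and 19.7%). Leaving out all 4 libraries numbered 2, chosen after seeing the data, gave 6, 4, 0 and 0 (24.1%, 23.3%, 5.86% and 10.6% of all gene IDs). Leaving out 1 library at a time gave 8 to 12, 8 to 16, 0 to 6 and 0 to 6. The shares of all gene IDs called were then 27.2% to 38.7%, 25.7% to 33.8%, 8.25% to 16.0% and 12.9% to 24.5%. The lowest count for siMITF with IFNγ, 8, was without siCTRL + IFNγ library 3. For IFNγ in siCTRL cells the count was 1 without siMITF + IFNγ library 2 and 6 without siMITF + IFNγ library 1, and for IFNγ in siMITF cells it was 2 without siCTRL library 1, siCTRL + IFNγ library 3, siMITF library 1 or siMITF + IFNγ library 1. The cause was not tested.

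Mitochondrial subunits, with 0 calls, gave 1, 2, 1 and 5 with the replicate block, 1, 2, 1 and 4 with length and GC trends removed and the block, and 2 and 4 for siMITF with IFNγ and IFNγ in siMITF cells with rescaling and the block. IFNγ in siMITF cells gave 1 in the fit of only the conditions compared and 3 without the libraries numbered 2, which were left out after their low mitochondrial values were seen. Leaving out single libraries gave 0 in all comparisons. Their median difference for siMITF without IFNγ ranged from -0.30 without siCTRL library 2 to 0.33, with IFNγ from -0.11 to 0.43, for IFNγ from -0.17 to 0.55 in siCTRL and from 0.15 to 0.44 in siMITF cells, and for the interaction from -0.25 to 0.47. Their median SD of 0.468 became 0.216 with the block, 0.220 with length and GC trends removed and the block, 0.241 with rescaling and the block and 0.113 without the libraries numbered 2, and was 0.384 to 0.501 with single libraries left out. The block removed no call of a member, and the calls it added are within the counts above.

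Calls of single members also turned on single libraries. That of NDUFB11 for siMITF was lost without siCTRL library 3, siMITF library 2 or 3. Under IFNγ, NDUFA2 was lost without siCTRL + IFNγ library 3 or siMITF + IFNγ library 1, NDUFB11 without siCTRL + IFNγ library 3, NDUFC2 without siCTRL + IFNγ library 2 or siMITF + IFNγ library 3, and NDUFB8 without siCTRL + IFNγ library 2 or any siMITF + IFNγ library. ATP5PF and COX7A2 were lost without siCTRL + IFNγ library 1 or 3 or siMITF + IFNγ library 1 or 2. Those of NDUFA8, SDHB, NDUFA2, NDUFB10, NDUFB9, ATP5MC3, COX7A2L and SDHD for siMITF without IFNγ held with each single library left out. Depth cannot be read from TPM.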
